A study of Mus musculus with 6 samples.

Results

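Germinal centre B cell marker genes are described here by 10 genes, Gcsam, Mybl1, Neil1, Nuggc, Basp1, Efnb1, Gcnt3, Lmo2, Pou2af1 and Fas, chosen by name and found as 10 of the 35275 genes in the deposited expression table. RNA of B cells from mouse spleens was sequenced, with 3 libraries from wild-type (WT) mice and 3 from mice whose CD40 ligand is altered (CD40LΔ5). All mice were C57BL/6 and 6 to 8 weeks old, and all were sampled on day 8 after an injection of sheep red blood cells (SRBC), so there was no group without antigen. The labels say neither how the CD40LΔ5 allele was made nor how many animals gave the libraries of a group, so p-values measure the spread between these libraries, which may be technical. A magnetic kit for all B cells was used, and germinal centre cells are therefore a part of each sample.

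The germinal centre is the site in a follicle where antigen-activated B cells divide, mutate their immunoglobulin genes and are selected with help from T follicular cells. That help includes CD40 ligand, which engages CD40 on the B cell. SRBC is a T cell-dependent antigen that is widely used to raise germinal centres in the mouse spleen. Several of the marker genes act in transcription (Mybl1, Lmo2, Pou2af1) or at the genome (Neil1, Nuggc), and others act at the membrane or in the cell's contacts (Gcsam, Basp1, Efnb1, Fas).

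The authors' deposited table of group means places libraries otherwise than the labels do. Averaged as MUT are the libraries labelled WT replicates 1 and 2 and CD40LΔ5 replicate 2, and averaged as WT are the other 3, so that 2 of the 6 libraries were placed alike and 4 were not. Every library is named below by its label. Group comparisons are given by the labels and then by the table, and a direction holds only for the grouping named with it. Which of the placements is right was not tested. Libraries held 24320080 to 27866611 reads on listed genes. The B lineage list (10 genes such as Cd79a and Ms4a1) summed to 5050 to 5936 FPKM per library, and the T cell list (10 genes) to 41.7 to 51.4 FPKM. FPKM is the number of reads per kilobase of gene length and 1000000 reads, so levels can be compared between genes.

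The marker genes lie on 8 chromosomes. Chromosome 9 holds 3 of them, Neil1 (57142800 to 57148305, minus strand), Gcnt3 (70031496 to 70038088, minus strand) and Pou2af1 (51213690 to 51240079, plus strand). Gcsam lies on chromosome 16 (45610380 to 45622867, plus strand) and Mybl1 on chromosome 1 (9667415 to 9700209, minus strand). Nuggc lies on chromosome 14 (65598546 to 65648531, plus strand) and Basp1 on chromosome 15 (25363285 to 25413764, minus strand). The positions of Efnb1 are 99136130 to 99148991 on chromosome X, those of Lmo2 103957986 to 103981878 on chromosome 2, and those of Fas 34290659 to 34327770 on chromosome 19, all on the plus strand. These are coordinates of GRCm38 as the deposited table lists them, and 7 of the 10 equal the gene's start and end in GENCODE. Lmo2 overlaps a listed gene on the other strand, 4931422A03Rik, whose highest value was 8.93 FPKM against at least 100.1 FPKM for Lmo2. The other 9 overlap no listed gene, which matters because the library kit does not mark the strand.

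Promoter windows of 300 bases, from 250 bases before the RefSeq start site to 50 after it, were at hand for 6 of the 10 genes (RefSeq, GRCm38.p6). Shown are those of Gcsam and Neil1, which varied between libraries and hold letters marked below. Also shown is that of Pou2af1, which hardly varied and holds none of them. Those of Basp1, Efnb1 and Fas, which varied too, hold none and are not shown. Capitals mark the letters AACTGNC of the MYB family motif, the family of Mybl1, and CAGGTG, an E-box bound by E2A proteins, both searched on both strands. The windows are chr16:45610190-45610489 on the plus strand for Gcsam, chr9:57148256-57148555 on the minus strand for Neil1 and chr9:51213440-51213739 on the plus strand for Pou2af1.
Gcsam: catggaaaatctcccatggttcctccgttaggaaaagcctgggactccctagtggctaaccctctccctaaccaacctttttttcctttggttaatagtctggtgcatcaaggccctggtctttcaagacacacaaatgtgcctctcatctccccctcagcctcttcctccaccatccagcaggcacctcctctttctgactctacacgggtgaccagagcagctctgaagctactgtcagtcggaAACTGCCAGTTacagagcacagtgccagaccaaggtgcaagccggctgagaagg
Neil1: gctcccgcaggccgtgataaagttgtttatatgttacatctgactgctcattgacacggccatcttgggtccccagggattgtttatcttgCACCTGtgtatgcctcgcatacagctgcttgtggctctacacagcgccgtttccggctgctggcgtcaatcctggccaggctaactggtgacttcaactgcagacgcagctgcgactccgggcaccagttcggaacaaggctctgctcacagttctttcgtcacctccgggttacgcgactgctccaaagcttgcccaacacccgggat
Pou2af1: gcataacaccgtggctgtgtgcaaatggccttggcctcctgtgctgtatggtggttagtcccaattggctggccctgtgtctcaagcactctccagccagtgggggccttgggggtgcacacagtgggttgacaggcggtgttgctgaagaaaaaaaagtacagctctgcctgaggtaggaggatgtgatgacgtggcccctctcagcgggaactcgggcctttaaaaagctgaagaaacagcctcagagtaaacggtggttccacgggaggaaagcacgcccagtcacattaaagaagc
The MYB letters were found in 1 of the 6 windows, that of Gcsam, where copies on either strand overlap and begin at position -4 and at the start site. They stand in 14.5% of the windows of 27025 genes. The listed start of Gcsam lies at -60 from this RefSeq start site, so by the listed start these letters lie inside the gene. CAGGTG was found in 1 of 6, that of Neil1, at position -159 from the start site, against 22.6% of all genes. CANNTG, the general E-box that includes CAGGTG, was found in 4 of 6 against 74.99%. The octamer ATGCAAAT, to which Pou2af1 is recruited through Oct proteins, was in 0 of 6 (1.97% of all genes), as was TTCCTNGAA, the core bound by BCL6 (1.86%). These are matches of letters in a short window and do not show binding. The windows differed in base composition, with 53.0% G and C in Gcsam, 56.0% in Neil1, 55.3% in Pou2af1 and 78.0% in Basp1, against a median of 52.7% over all windows.

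The marker genes fell into genes that differed many-fold between libraries and genes that hardly differed. For 8 of the 10 the highest library was at least 3 times the lowest. Among genes whose mean reached 1 FPKM (the tested genes) this held for 7 of 9 marker genes, against 7.92% of all 11252. The other 2, Lmo2 and Pou2af1, were also the most abundant. In all 8 variable genes WT replicate 1 and CD40LΔ5 replicate 2 were the lowest 2 libraries and CD40LΔ5 replicate 3 came next, so the low libraries carried both labels. WT replicate 1 and CD40LΔ5 replicate 2 were the lowest pair in 7 of the 9 tested marker genes, against 8.02% of all tested genes. The pair was named after the values of the marker genes were seen, so this contrast only describes them and is not a test. The order of Gcnt3, which was not among the tested genes, rests on few reads, with 20 in CD40LΔ5 replicate 3 and 21 in WT replicate 2. In whole-sample RNA, fewer germinal centre cells and less RNA per cell cannot be told apart.

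**Figure D1:**
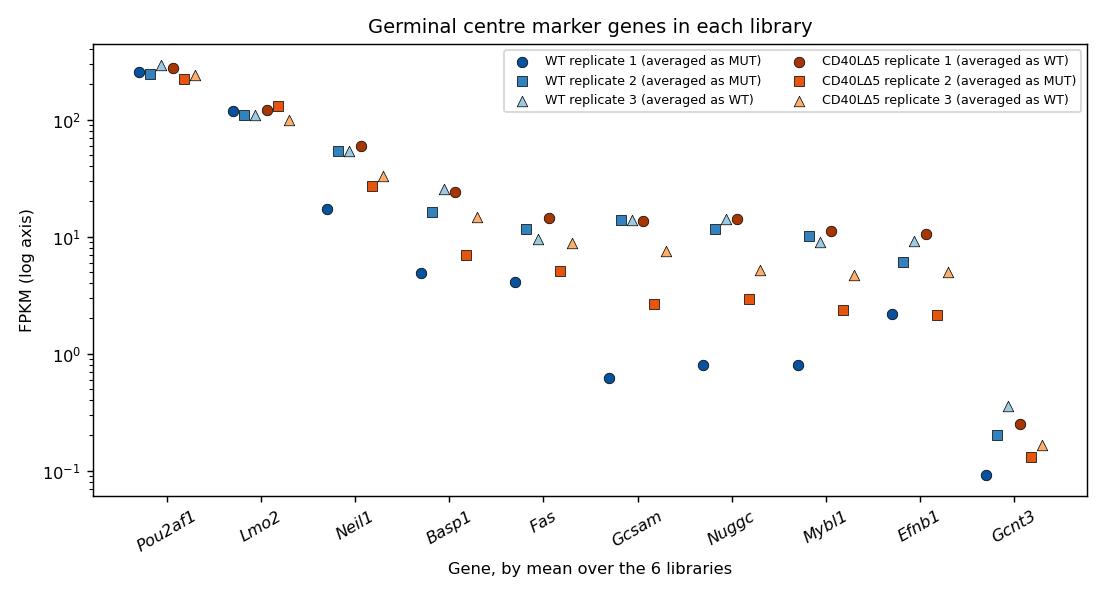
Level of each marker gene (FPKM, log axis) in the 6 libraries, with 1 point per library, blue for the label WT and orange for the label CD40LΔ5, and the column of the table of means that holds the library in brackets. WT replicate 1 and CD40LΔ5 replicate 2 lie lowest in 8 of the 10 genes, while Lmo2 and Pou2af1 stay within a narrow band.

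Gcsam encodes an adaptor protein of germinal centre B cells that, as known mainly from the human protein, acts in receptor signalling and cell motility. WT replicates 1, 2 and 3 held 0.614, 13.87 and 13.95 FPKM, while CD40LΔ5 replicates 1, 2 and 3 held 13.6, 2.67 and 7.49 FPKM. The highest library was thus 22.7 times the lowest, the widest range among the 10 genes, and both extremes carried the label WT. The value of WT replicate 1 rests on 52 reads (exact 95% Poisson interval 0.459 to 0.806 FPKM) and that of CD40LΔ5 replicate 2 on 220 reads (2.33 to 3.05 FPKM). These intervals cover counting error only. WT replicate 2, WT replicate 3 and CD40LΔ5 replicate 1 had overlapping intervals.

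Nuggc, a nuclear GTPase that guards the genome of germinal centre B cells, had the next widest range at 17.8-fold. WT replicates 1 to 3 held 0.799, 11.6 and 14.2 FPKM and CD40LΔ5 replicates 1 to 3 held 14.2, 2.93 and 5.22 FPKM. Mybl1, the transcription factor A-MYB, ranged 13.9-fold, with 0.794, 10.1 and 9.05 FPKM under the label WT and 11.1, 2.34 and 4.68 FPKM under CD40LΔ5, each in the order of replicates 1 to 3. Both genes thus separated the same libraries as Gcsam, and the 2 labels overlapped widely. Within a library the ratio of Nuggc to Gcsam stayed between 0.696 and 1.30 and that of Mybl1 to Gcsam between 0.625 and 1.29, with the highest ratios in WT replicate 1, where all 3 genes rest on 52 to 101 reads.

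Neil1, a DNA glycosylase that starts base excision repair of oxidised bases, was the most abundant of the variable genes. Levels reached 17.3, 53.6 and 53.8 FPKM in WT replicates 1 to 3, and 59.2, 27.3 and 33.0 FPKM in CD40LΔ5 replicates 1 to 3. The order of the libraries was close to that of Gcsam, but the range was 3.41-fold. Its ratio to Gcsam was therefore 28.2 in WT replicate 1 and 10.2 in CD40LΔ5 replicate 2, against 3.86 to 4.40 in the other 4 libraries.

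Basp1, a membrane-attached protein best known from nerve growth cones, measured 4.90, 16.1 and 25.5 FPKM under the label WT, and 23.9, 6.998 and 14.7 FPKM under CD40LΔ5 (replicates 1 to 3). Efnb1 encodes ephrin B1, a membrane ligand of Eph receptors that acts in contacts of germinal centre B cells with T follicular helper cells. In the same order it measured 2.20, 6.03 and 9.17 FPKM under the label WT, and 10.5, 2.13 and 4.96 FPKM under CD40LΔ5. Fas, the death receptor used with the GL7 epitope to stain mouse germinal centre B cells, measured 4.11, 11.5 and 9.61 FPKM under the label WT and 14.3, 5.12 and 8.79 FPKM under CD40LΔ5. These 3 genes ranged 3.48-fold (Fas) to 5.21-fold (Basp1). In each, WT replicate 1 and CD40LΔ5 replicate 2 were lowest, and WT replicate 1 was the lower of these except for Efnb1.

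Gcnt3, a glycosyltransferase that builds branches on mucin-type O-glycans, was near the detection limit. Its levels in WT replicates 1 to 3 were 0.0911, 0.201 and 0.354 FPKM, and CD40LΔ5 replicates 1 to 3 had 0.248, 0.131 and 0.167 FPKM. These levels rest on 10 to 42 reads per library. The exact 95% Poisson interval was 0.0437 to 0.167 FPKM in WT replicate 1 and 0.255 to 0.478 FPKM in WT replicate 3, so that the lowest and the highest library differed by more than counting error, while intervals of neighbours in the order overlapped.

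Lmo2, a LIM-only transcriptional adaptor also used as a germinal centre marker in human pathology, and Pou2af1, the B cell coactivator OCA-B that mice need to form germinal centres, were high in every library. For Lmo2, WT replicates 1 to 3 held 119, 109 and 109 FPKM and CD40LΔ5 replicates 1 to 3 held 121, 131 and 100.1 FPKM. For Pou2af1 these levels were 254, 246 and 296 FPKM under the label WT, and 278, 223 and 241 FPKM under CD40LΔ5. The highest library was 1.31 and 1.33 times the lowest, close to the median of 1.35 over tested genes. Neither shared the order of the 8 variable genes: CD40LΔ5 replicate 2 was the highest library for Lmo2, and WT replicate 1 was not among the lowest 3 for Pou2af1.

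The spread between libraries of 1 label put these genes in order as well. The SD of log2(FPKM + 1) within a label was 1.49 for Gcsam, 1.40 for Nuggc and 1.24 for Mybl1, at the 99.3rd, 99.2nd and 99.0th percentile of the 11252 tested genes. It was 0.98 for Basp1, 0.90 for Efnb1, 0.76 for Neil1 and 0.67 for Fas, the last at the 96.5th percentile. For Lmo2 and Pou2af1 it was 0.15 each, at the 50.4th and 51.5th percentile. The median over all tested genes was 0.15.

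**Figure D2:**
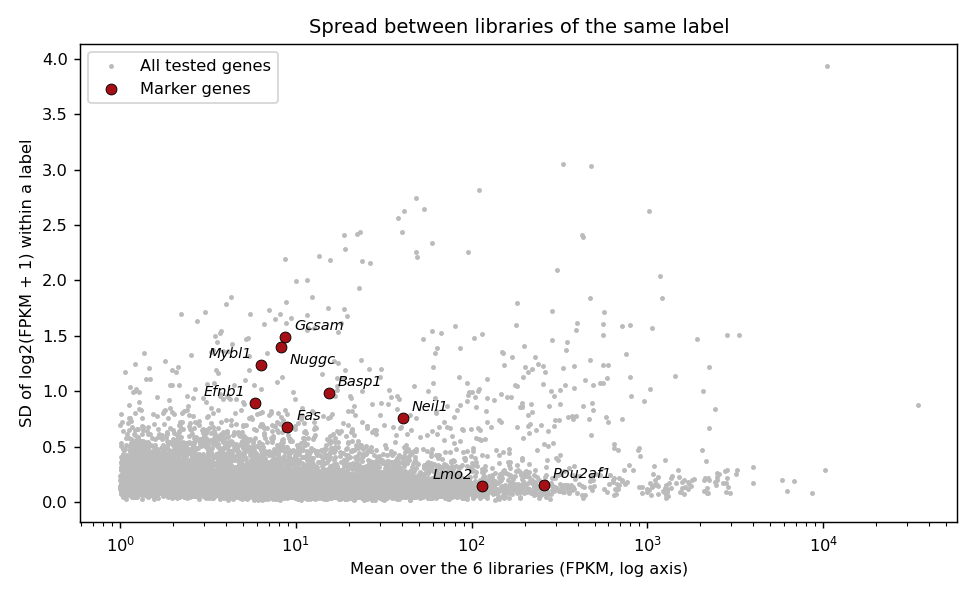
SD of log2(FPKM + 1) between libraries of the same label, pooled over both labels, against mean level (FPKM, log axis) for the 11252 tested genes in grey and the 9 tested marker genes in red. The 7 variable marker genes lie at 0.67 or more, while Lmo2 and Pou2af1 lie at 0.15 among the bulk of genes.

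By the labels, no marker gene differed between CD40LΔ5 and WT beyond this spread. The mean of Gcsam was 7.92 ± 5.48 FPKM under the label CD40LΔ5 against 9.48 ± 7.68 FPKM under WT (SD, n = 3), with a difference of 0.11 ± 0.94 (SE) in mean log2(FPKM + 1). The mean FPKM was lower and the mean log2 value higher in CD40LΔ5 for 5 of the 9 tested genes, Gcsam, Mybl1, Neil1, Nuggc and Basp1, and the reverse was true of Efnb1. Basp1 averaged 15.2 ± 8.49 against 15.5 ± 10.3 FPKM, and Neil1 39.8 ± 17.02 against 41.6 ± 21.0 FPKM. The largest log2 difference was that of Fas, at 0.14 ± 0.43. In all 9 genes the difference was smaller than its SE. Of the 9 tested genes 0 were called by limma on log2(FPKM + 1) at a Benjamini-Hochberg adjusted p of 0.05, where 0.0% of all tested genes were called (adjusted p = 0.999993 for each). At an unadjusted p under 0.05 there were 0 of 9, against 1.24% of all tested genes, and voom on recovered reads called 0 of 9 too. The median log2 difference was 0.06 over the 9 genes and 0.01 over all tested genes. Gcnt3, which was under the level for that fit, averaged 0.182 ± 0.0600 against 0.215 ± 0.132 FPKM (SD, n = 3; exact two-sided permutation p = 0.8, where 3 against 3 cannot give less than 0.1).

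The direction by the labels turned with single libraries. Without WT replicate 1 the log2 difference of Gcsam became -0.95, and 6 of the 9 genes turned to lower values in CD40LΔ5. Without CD40LΔ5 replicate 1 it became -0.35, and again 6 turned. Without CD40LΔ5 replicate 2 the difference of Gcsam was 0.65. Groups that do not overlap were found in 0 of the 10 genes, against 2.98% of tested genes on the higher and 1.32% on the lower side.

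By the table of means, the log2 difference was below 0 for 8 of the 9 tested genes, on the side averaged as MUT, and none passed the test. Basp1 had a mean of 9.34 ± 5.96 FPKM on that side against 21.4 ± 5.83 FPKM on the side averaged as WT (SD, n = 3), a difference of -1.23 ± 0.39 (SE) in log2(FPKM + 1). Efnb1 measured 3.45 ± 2.23 against 8.21 ± 2.90 FPKM (log2 difference -1.10 ± 0.37) and Gcsam 5.72 ± 7.13 against 11.7 ± 3.64 FPKM (log2 difference -1.47 ± 0.74). Nuggc differed by -1.34 ± 0.70 and Mybl1 by -1.12 ± 0.64 on this scale. Differences were smaller for Fas (-0.67 ± 0.34) and Neil1 (-0.66 ± 0.40). Lmo2 was the exception, at 0.12 ± 0.11, and Pou2af1 differed by -0.17 ± 0.11. The limma adjusted p lay between 0.352 (Basp1) and 0.615 (Lmo2), so that 0 of 9 were called, against 0.0267% of all tested genes. At an unadjusted p under 0.05 there were Basp1 and Efnb1, 2 of 9, against 13.0% of all tested genes in either direction and 3.61% on the lower side. The median log2 difference was -1.10 over the 9 genes and 0.05 over all tested genes.

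The sets of the table overlapped in each of the 10 genes, where 4.79% of tested genes did not overlap on the lower and 12.1% on the higher side. WT replicate 2, averaged as MUT, exceeded CD40LΔ5 replicate 3, averaged as WT, in all 7 variable genes of the fit and in Gcnt3. For Gcnt3 the exact two-sided permutation p was 0.2, with 0.141 ± 0.0555 FPKM averaged as MUT and 0.256 ± 0.0938 FPKM averaged as WT (n = 3). Leaving out WT replicate 2 moved the log2 difference of Gcsam from -1.47 to -2.34 (limma adjusted p = 0.122), and leaving out WT replicate 1 moved it to -0.73 (limma adjusted p = 0.572). Over the 6 fits that each left out 1 library, the log2 difference by the table ran from -2.09 to -0.68 for Nuggc, from -1.85 to -0.54 for Mybl1, from -1.08 to -0.30 for Neil1 and from -1.06 to -0.41 for Fas. In these 4 genes the larger difference was that without WT replicate 2 and the smaller that without WT replicate 1. The log2 difference ran from -1.67 to -0.90 for Basp1 and from -1.49 to -0.90 for Efnb1.

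**Figure D3:**
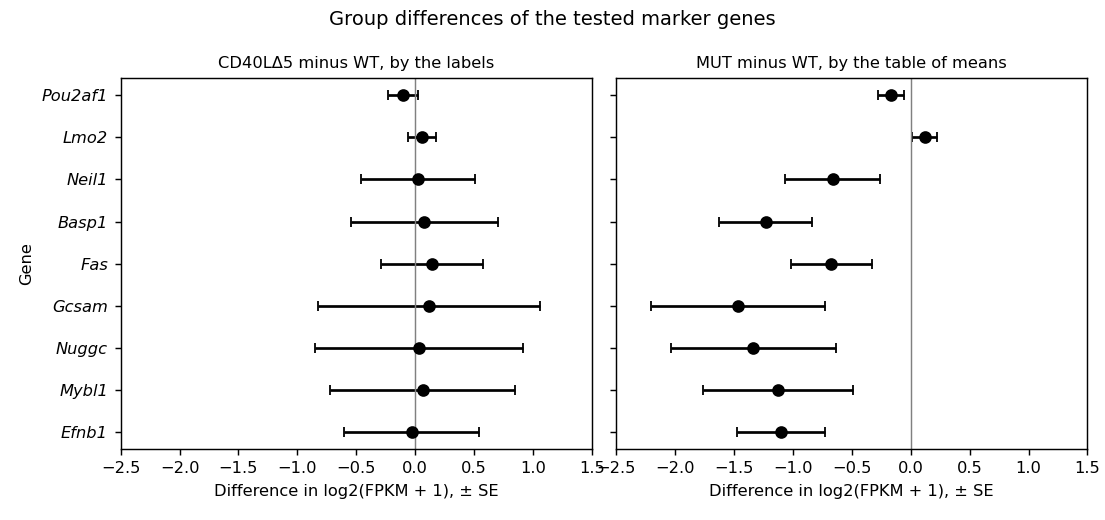
Difference in mean log2(FPKM + 1) with its SE for the 9 tested marker genes, CD40LΔ5 minus WT by the labels on the left and MUT minus WT by the table of means on the right. By the labels every bar spans 0, and by that of means 8 of 9 genes lie below 0, with none past an adjusted p of 0.05.

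Other genes of the germinal centre followed the variable marker genes only in part. In a list of 18 such genes, 17 were tested, and WT replicate 1 and CD40LΔ5 replicate 2 were the lowest 2 libraries in 10 of these. Rgs13, a regulator of chemokine receptor signalling, ranged 7.77-fold, from 3.73 FPKM in WT replicate 1 to 29.0 FPKM in CD40LΔ5 replicate 1, and was chosen after its values were seen. Bcl6, the master regulator of germinal centre B cells and likewise chosen, ranged only 1.78-fold (22.5 to 40.1 FPKM). Its lowest libraries were nevertheless those of the variable marker genes, CD40LΔ5 replicate 2 (22.5 FPKM), WT replicate 1 (23.7 FPKM) and CD40LΔ5 replicate 3 (25.7 FPKM). The most abundant genes of the list, the transcription factors Spib (298 to 368 FPKM) and Irf8 (150.1 to 174 FPKM) and the cytokine receptor gene Il21r (96.0 to 120.1 FPKM), ranged 1.25-fold or less. In 8 of the 17 genes the range was under 1.5-fold, as in Lmo2 and Pou2af1. None of the 17 passed the limma test in either grouping, with a median log2 difference of 0.04 by the labels and -0.28 by the table.

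Most listed genes of dividing cells and of plasma cells had the same 2 libraries lowest. In the proliferation list this held for 10 of 10 genes, such as Top2a, the topoisomerase of dividing cells, with 13.9, 24.0 and 38.2 FPKM under the label WT, and 36.4, 13.7 and 25.8 FPKM under CD40LΔ5 (replicates 1 to 3). In the plasma cell list it held for 8 of 9 genes, but the remaining libraries were ordered otherwise. Xbp1, the transcription factor of secretory cells, reached 69.1, 181 and 242 FPKM under the label WT, and 123, 52.8 and 214 FPKM under CD40LΔ5, in that order of replicates. CD40LΔ5 replicate 1 was thus among the highest for the variable marker genes, but for Xbp1 came next above the lowest 2 libraries. CD40LΔ5 replicate 3 held that place for the variable marker genes and was high for Xbp1. The mean of the plasma cell list, centred on the 6 libraries, was -0.19 in CD40LΔ5 replicate 1 and 0.56 in CD40LΔ5 replicate 3 on the log2(FPKM + 1) scale, against 0.71 and -0.03 for the 9 marker genes.

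Lists of B cells at large did not share the order. For 0 of 10 B lineage genes and 0 of 9 genes of resting follicular B cells were these 2 libraries lowest. The B lineage mean was instead highest in CD40LΔ5 replicate 2 (0.13) and WT replicate 1 (0.08), the libraries with the lowest marker levels, with -0.12 to 0.04 in the others. Cd79a, the signalling chain of the B cell receptor, held 1999, 1510 and 1651 FPKM under the label WT, and 1700, 1884 and 1643 FPKM under CD40LΔ5 (replicates 1 to 3). Scaling every library to equal B lineage levels turned the small log2 differences of Neil1 and Nuggc by the labels below 0 and left the direction of the other 7 tested genes; by the table all 9 kept theirs.

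RNA of other cell types also differed between the libraries. Summed over the monocyte and macrophage list (9 genes found) the level was 324, 195 and 119 FPKM under the label WT, and 125, 163 and 189 FPKM under CD40LΔ5 (replicates 1 to 3). It was highest in WT replicate 1, where most marker genes were lowest. The natural killer cell list (8 genes) summed to 53.2, 47.5 and 29.6 FPKM under the label WT and to 23.3, 58.7 and 34.7 FPKM under CD40LΔ5. This sum did not overlap between the sets of the table, with 47.5 to 58.7 FPKM averaged as MUT and 23.3 to 34.7 FPKM averaged as WT. Of all single tested genes, 12.1% did not overlap on that higher side. None of the 7 tested genes of the list passed the limma test by the table. Neutrophil genes (10 genes) were high in WT replicate 3 (344 FPKM) and CD40LΔ5 replicate 3 (594 FPKM) and at 45.9 to 82.7 FPKM elsewhere. Erythroid genes (7 genes) summed to 313 FPKM in CD40LΔ5 replicate 1 and to 623 to 1180 FPKM in the others. No gene of any of these lists was at 0 in all libraries. The part of these cells in the marker gene values was not tested.

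**Figure D4:**
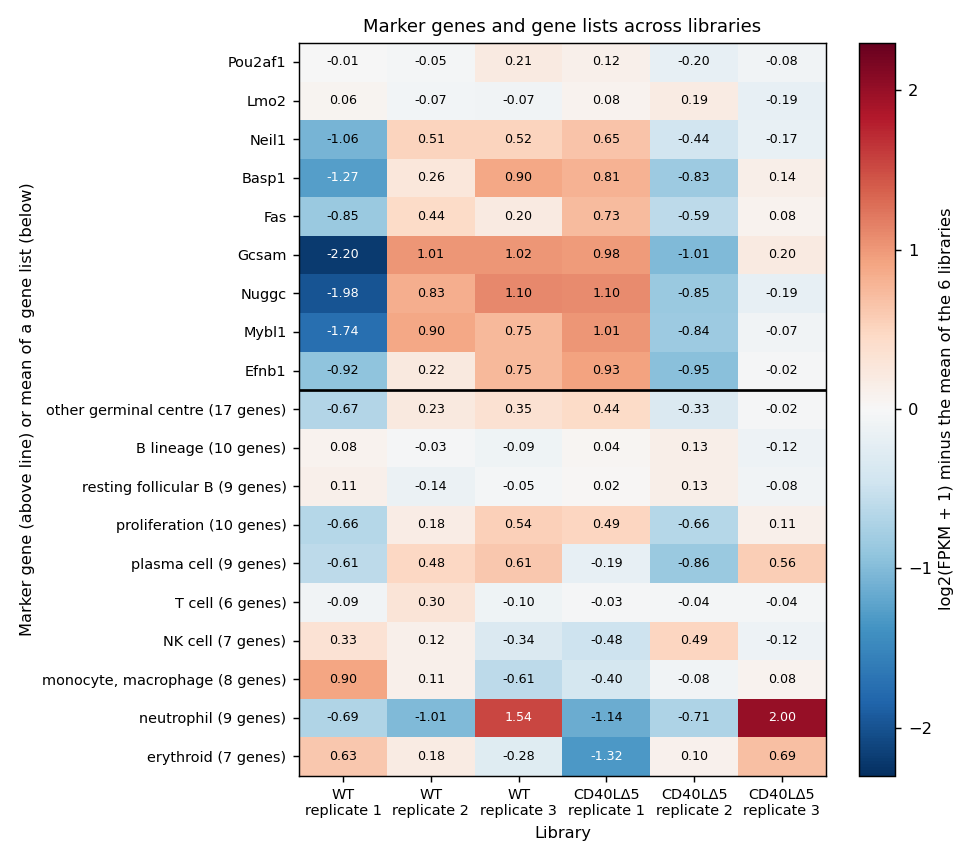
Level of each tested marker gene (above the line) and mean of each gene list (below it) in the 6 libraries, as log2(FPKM + 1) minus the mean of the 6 libraries, blue for low and red for high. WT replicate 1 and CD40LΔ5 replicate 2 are low for the 7 variable marker genes, the proliferation list and the plasma cell list, but not for the B lineage list.

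The marker genes were also compared with all others by the distance between profiles, the root mean square difference of centred log2(FPKM + 1) over the 6 libraries, taken from the mean profile of the 9 tested marker genes. That mean profile ran from -1.11 in WT replicate 1 to 0.71 in CD40LΔ5 replicate 1. Among the marker genes, which are part of that mean, Neil1 lay nearest to it (0.10) and Lmo2 farthest (0.72). Gcsam (0.57) and Nuggc (0.48), the genes of widest range, also lay far from it. They had the same libraries low but larger deviations, at -2.20 and -1.98 in WT replicate 1. Pou2af1 (0.60) lay far from it with small deviations, from -0.20 to 0.21. The distance thus depends on the size of deviations as well as on the order of libraries. The median distance over tested genes was 0.70. Outside the lists the 6 nearest genes were Cep55, which acts in cytokinesis (0.08), Esco2, a cohesin acetyltransferase (0.09), Nuf2, of the kinetochore (0.17), Ncapg, of condensin (0.17), Ackr4, a scavenging chemokine receptor (0.18), and Cdkn3, a phosphatase of cyclin-dependent kinases (0.19). WT replicates 1 to 3 held 0.218, 2.83 and 3.06 FPKM of Ackr4, and CD40LΔ5 replicates 1 to 3 held 2.24, 0.492 and 1.68 FPKM. The measure rests on these 6 libraries and describes them only.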

How the data were processed

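Per the labels' protocols, a magnetic kit was used to take B cells from the spleens, and 1 µg of RNA per library went into a TruSeq kit. CASAVA 1.8.2, STAR, DESeq2 and the build mm9 appear in the submitters' processing notes, which give them no role. How reads were assigned to genes is not given in the sources used here. Listed coordinates fit GRCm38, since 24919 of 35275 genes have exactly the chromosome, start and end of GENCODE.

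The authors deposited FPKM per gene and library, with and without gene names (equal in every cell), and FPKM means. Dividing FPKM times length by its smallest step recovered reads as whole numbers for 100% of values (tolerance 0.01 reads), and 1 read is worth 0.0359 to 0.0411 FPKM at 1 kb. The libraries behind each column of means were found by matching (largest difference 3.33e-08 FPKM).

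Groups came from the labels, 3 libraries each, with no covariates. limma 3.58.1 (lmFit, trended eBayes; R 4.3.3) was run on log2(FPKM + 1), which understates changes of low genes, for the 11252 genes averaging 1 FPKM or more. Tests were two-sided with Benjamini-Hochberg adjustment over all of these and a threshold of 0.05. Gcnt3, below that level, had an exact permutation test of its mean. The procedure was also run on simulated data with known changes, and the share of these that it recovered is not given here. Alternatives were pseudocount 0.1, no filter, other scalings, limma voom on recovered reads, eBayes without a trend, a replicate block and leaving out each library. A fit of the 4 libraries placed differently by labels and table was added after seeing the data.

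The marker genes, the 11 other lists (119 of 124 entries of all lists were found) and the tests were chosen with earlier results of these data known. Named are the marker genes, the most abundant genes of a list and the 6 nearest profiles without predicted genes and immunoglobulin segments, and exceptions are marked.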

Additional observations from a re-analysis of the deposited data

How the results depend on the processing

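The count of marker genes called was 0 under every alternative run for each grouping, those that left out a library included. By the table, all log2 differences of the 9 tested marker genes kept their direction under the alternatives run for that grouping, which do not include the replicate block and the fit of 4 libraries. The set averaged as MUT holds WT replicate 1 and CD40LΔ5 replicate 2, the lowest 2 libraries of the 7 variable genes in the fit. The directions of these genes thus rest on 1 shared library order and are not separate results. By the labels directions were not stable: with B lineage scaling Neil1 became -0.0079 and Nuggc -0.0053, and in the 4 libraries placed differently by labels and table Efnb1 became 0.80, Lmo2 -0.048 and Pou2af1 0.049. Leaving out 1 library gave log2 differences by the labels of -0.95 to 0.65 for Gcsam, -0.79 to 0.53 for Mybl1, -0.50 to 0.29 for Neil1, -0.95 to 0.59 for Nuggc, -0.54 to 0.54 for Basp1, -0.50 to 0.44 for Efnb1, -0.026 to 0.16 for Lmo2 and -0.25 to 0.48 for Fas. Pou2af1 was the exception and kept its direction, at -0.19 to -0.023. For Gcnt3 the difference in mean FPKM by the labels was -0.0953 to 0.0361. Over all tested genes, the count of called genes by the labels was 0, and 2 in the 4 libraries placed differently. By the table it was 3, and became 5 with pseudocount 0.1 and with B lineage scaling, 1 without a filter and with voom, and 1 to 16 when a library was left out (13 without WT replicate 2, 16 without CD40LΔ5 replicate 1, 1 without CD40LΔ5 replicate 2). The cause was not tested. Deviations from the label means correlated at -0.38, 0.06 and 0.38 across genes for replicate numbers 1, 2 and 3. WT replicate 1 correlated best with CD40LΔ5 replicate 2 (0.56). WT replicates 2 and 3 correlated best with their own number, but almost as well with CD40LΔ5 replicate 1 (0.05 and 0.36). Deviations within a label depend on each other, so these values cannot decide whether the numbers pair the samples. With the replicate block 0 genes were called. Depth limits Gcnt3, at 10 to 42 reads per library.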
